A study of Mus musculus with 8 samples.

Results

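The genes described here are 10 markers and products of fat cells: the adipokines Adipoq, Lep, Retn and Cfd, the lipid droplet genes Plin1 and Cidec, the lipid handling genes Fabp4, Lpl and Pnpla2, and the transcription factor gene Pparg. They were taken by gene symbol from a table of 24612 mouse genes, all 10 were found there, and all 10 passed the filter on low values. The table comes from RNA sequencing of skin homogenate in 8 libraries, 2 labelled PBS, 3 labelled bleomycin and 3 labelled celastrol, under a title that names celastrol as an antifibrotic compound in systemic sclerosis. All animals were male mice of the strain C57 BL/6 J, obtained at 4 weeks of age and treated from 6 weeks of age, and all libraries carry the label of 21 days. PBS mice received 0.1 mL of phosphate-buffered saline under the skin. Bleomycin mice received 0.1 units of bleomycin by the same route. Bleomycin, which breaks DNA, is used in mice to model skin fibrosis, in which dermal fat is known to be lost. Celastrol mice received daily injections into the peritoneum, at 1 or 2 mg/kg. Celastrol is a plant triterpenoid that is known to lower body weight in obese mice and to increase their sensitivity to leptin. The labels do not say which dose each celastrol mouse received, nor whether celastrol mice were also given bleomycin. They number the libraries and do not say that each came from a separate mouse, so the p-values measure only the spread between these libraries, which may be technical.

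White adipocytes store triglyceride in a single large droplet that is coated by perilipin 1, and mouse skin holds a layer of them below the dermis. Pparg, which encodes the nuclear receptor PPAR gamma, works with the C/EBP factors to switch on and maintain the adipocyte programme. That programme includes the uptake of fatty acids freed by lipoprotein lipase, their release by adipose triglyceride lipase, and the secretion of hormones such as adiponectin and leptin.

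The sequence just upstream of the gene start is shown for 3 adipokine genes. Adipoq varied between libraries with most of the other members, while among the other adipokines Lep and Retn lay further from it than Cfd. Plin1 lay further from Adipoq still, but is not an adipokine gene and is not shown. RefSeq windows were matched for 8 of the 10 members, and the genes not matched were Fabp4 and Lpl. Each line gives the 250 bases before the annotated start in the GRCm38.p6 build, 5′ to 3′ on the strand of the gene, which is the plus strand for all of these genes. Adipoq is at chr16:23146286-23146535, Lep at chr6:29059971-29060220 and Retn at chr8:3655520-3655769. Capitals mark exact matches, on either strand, to the CCAAT box (its own letters), to the C/EBP palindrome TTGCGCAA, or to the nuclear receptor half-site AGGTCA. A direct repeat of the half-site with 1 base between its copies was also searched, and any match to it contains the half-site.
Adipoq: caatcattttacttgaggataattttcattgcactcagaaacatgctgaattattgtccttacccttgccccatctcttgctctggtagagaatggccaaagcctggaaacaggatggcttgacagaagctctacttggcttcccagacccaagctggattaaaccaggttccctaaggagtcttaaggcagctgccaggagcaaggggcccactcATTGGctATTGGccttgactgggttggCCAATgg
Lep: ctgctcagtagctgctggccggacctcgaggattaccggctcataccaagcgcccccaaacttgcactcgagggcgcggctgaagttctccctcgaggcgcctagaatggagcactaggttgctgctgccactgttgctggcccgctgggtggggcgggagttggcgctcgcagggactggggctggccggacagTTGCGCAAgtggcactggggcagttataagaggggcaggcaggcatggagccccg
Retn: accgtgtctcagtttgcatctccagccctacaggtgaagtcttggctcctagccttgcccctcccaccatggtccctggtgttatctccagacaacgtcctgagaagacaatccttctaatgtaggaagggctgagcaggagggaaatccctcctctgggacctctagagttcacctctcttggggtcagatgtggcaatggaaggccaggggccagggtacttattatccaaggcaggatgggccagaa
The Adipoq window held 3 matches to CCAAT within the last 34 bases before the start, 2 of them on the opposite strand. CCAAT occurred in 33.8% of 32851 windows of this length. The Lep window held TTGCGCAA at 55 to 48 bases before the start, a sequence found in 0.164% of windows. The Retn window held none of the searched letters. AGGTCA was found in 14.0% of all windows and, among the members, upstream of Pparg. The direct repeat was found in 0.0335% of all windows and in none of the members' windows. These matches describe the letters of the windows only.

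Values are the deposited normalized values, on a linear scale, and are given in each library as a gene's level after scaling for library size. Depth, estimated from the value of a single read, lay between 31600000 and 37100000 reads in 4 libraries (PBS 2, Bleomycin 2, Bleomycin 4 and Celastrol 5) and between 14900000 and 21700000 in the other 4 (PBS 3, Bleomycin 3, Celastrol 2 and Celastrol 3). Celastrol 2 listed 4165 genes at 0, against 593 to 3001 in the other libraries. Differences are given on the log2(value + 1) scale with the standard error (SE) of a limma fit of all 8 libraries, and adjusted p-values are Benjamini-Hochberg values over 23185 genes tested. In homogenate, fewer fat cells and less of a transcript per fat cell cannot be told apart.

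The adipocyte genes spread widely between libraries of the same group. None of the 10 passed an adjusted p of 0.05 in limma in any of the 3 comparisons. That is 0 of 10 for bleomycin against PBS, where 0.677% of all genes tested passed, and 0 of 10 for celastrol against PBS, where 1.37% passed. For celastrol against bleomycin, where the fit called 0% of genes, Lep alone among the members had an unadjusted p under 0.05, a bound that 3.87% of all genes met. In the other comparisons 0 members met that bound, against 6.82% of genes for bleomycin against PBS and 12% for celastrol against PBS. The median difference over the members was 0.22 for bleomycin against PBS, with 9 of 10 above 0. It was -0.31 for celastrol against bleomycin, with 3 of 10 above 0, and 0.12 for celastrol against PBS, with 6 of 10 above 0. The medians over all genes tested were -0.001, -0.035 and -0.066. Each member median changed sign when 1 library was left out. It was -0.07 for bleomycin against PBS without Bleomycin 2 and -0.03 without PBS 3. It was 0.12 for celastrol against bleomycin without Celastrol 2. For celastrol against PBS it was -0.49 without Celastrol 5 and -0.22 without PBS 3. Both comparisons with PBS use the same 2 PBS libraries.

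**Figure D1:**
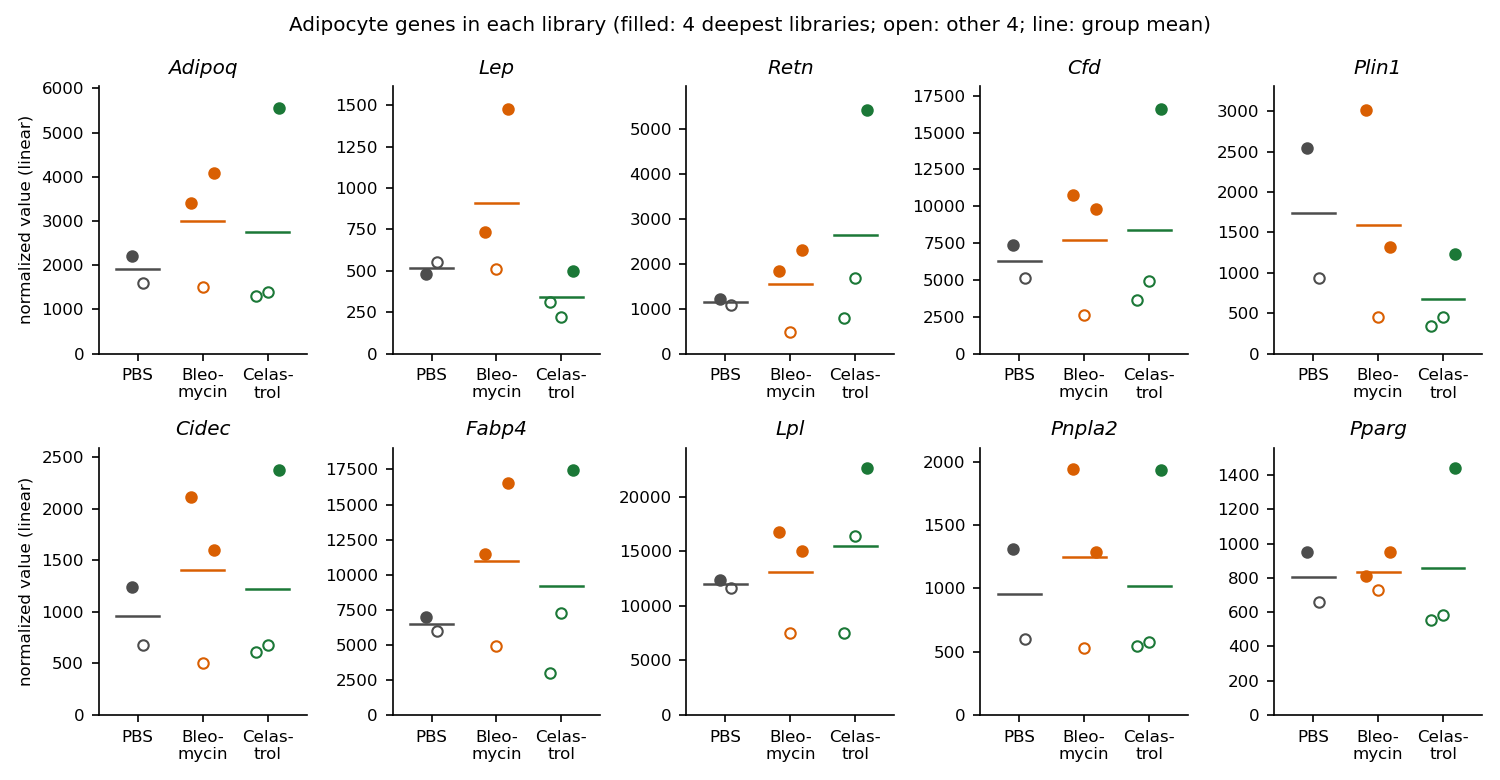
Normalized value (linear axis from 0) of each adipocyte gene in each library, by group, with filled points for the 4 deepest libraries, open points for the other 4 and a line at the group mean. Only for Lep do the celastrol libraries (218 to 497) lie wholly below the bleomycin libraries (512 to 1477).

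Among the adipokines, Adipoq encodes adiponectin, an insulin-sensitizing hormone made almost only by fat cells, and lies on chromosome 16 at 23146536 to 23158028 (mm10, GENCODE release M21). Its values were 2216 and 1592 in the PBS libraries, 3401, 1515 and 4082 in the bleomycin libraries (Bleomycin 2, 3 and 4) and 1305, 1388 and 5552 in the celastrol libraries (Celastrol 2, 3 and 5). The highest and the lowest value both came from the celastrol group, and all groups overlapped. The group means were 1904 ± 441 (SD, n = 2), 2999 ± 1330 (n = 3) and 2748 ± 2428 (n = 3). The log2 difference was 0.56 ± 0.58 (SE) for bleomycin against PBS, with a 95% interval of -0.74 to 1.85. It was -0.35 ± 0.52 for celastrol against bleomycin, with an interval of -1.51 to 0.80. For celastrol against PBS it was 0.20 ± 0.58, with an interval of -1.09 to 1.49.

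Lep encodes leptin, the hormone by which fat stores signal to the hypothalamus, and lies on chromosome 6 at 29060220 to 29073877. Its values were 482 and 553 in the PBS libraries, 737, 512 and 1477 in the bleomycin libraries, and 309, 218 and 497 in the celastrol libraries. Every celastrol value was below every bleomycin value. Lep was the 1 of 10 members whose groups did not overlap in this comparison, where 8.73% of all genes tested did not overlap and 4.59% did so with celastrol lower, a background near the share of the members. In the comparisons with PBS 0 of 10 members had groups that did not overlap, where 23.6% of genes did not for bleomycin and 26.9% for celastrol. The group means were 517 ± 50.1 (SD, n = 2), 909 ± 505 (n = 3) and 341 ± 143 (n = 3). Celastrol minus bleomycin was -1.35 ± 0.40, with a 95% interval of -2.24 to -0.47, a level of 0.392 times that with bleomycin. Its unadjusted limma p of 0.00649 ranked 75th among the genes tested, and its adjusted p was 0.975. Lep was 0.67 ± 0.45 for bleomycin against PBS (interval -0.32 to 1.66), and -0.68 ± 0.45 for celastrol against PBS (interval -1.67 to 0.31). The difference between celastrol and bleomycin was -1.07 within the 4 deepest libraries and -0.98 within the other 4, and it fell to -0.93 without Bleomycin 4, the highest library. It stayed below 0 in each of 17 alternative analyses, between -1.83 and -0.93, with adjusted p between 0.36 and 1.

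Retn encodes resistin, a cysteine-rich hormone that in mice is made by fat cells, and lies on chromosome 8 at 3655770 to 3660110. Its values were 1211 and 1087 in the PBS libraries, 1849, 473 and 2311 in the bleomycin libraries, and 801, 1684 and 5429 in the celastrol libraries. Celastrol 5 stood above all other libraries, Bleomycin 3 stood below them, and the groups overlapped. The highest value was 11.5 times the lowest, the widest range of the members. The difference was 0.62 ± 0.68 for celastrol against bleomycin (limma, adjusted p = 0.977), and it was 1.39 within the 4 deepest libraries and 1.29 within the other 4. It turned to -0.12 without Celastrol 5 and to -0.09 without Bleomycin 3, and was at most 1.26 with any library left out. Against PBS, the celastrol difference was 0.76 ± 0.76 (adjusted p = 0.755) and moved to 2.24 (adjusted p = 0.0751) when the 3 shallowest libraries were left out, which leaves Celastrol 5 as the lone celastrol library and assumes that it varies like the other groups.

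Cfd encodes complement factor D, also called adipsin, a serine protease of the alternative complement pathway, and lies on chromosome 10 at 79890853 to 79892655. Its values were 7396 and 5134 in the PBS libraries, 10759, 2622 and 9791 in the bleomycin libraries, and 3639, 4891 and 16600 in the celastrol libraries. Bleomycin 3 was the lowest library and Celastrol 5 the highest. The differences between groups lay between 0.03 and 0.11 in the 3 comparisons, with SEs of 0.60 to 0.67, so a change of about 1 log2 unit in either direction lies within the intervals.

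Of the lipid droplet genes, Plin1 encodes perilipin 1, which coats the droplet and controls access of lipases to it, and lies on the minus strand of chromosome 7 at 79720218 to 79732903. Its values were 2541 and 941 in the PBS libraries, 3022, 457 and 1315 in the bleomycin libraries, and 340, 448 and 1230 in the celastrol libraries. Celastrol 2 and Celastrol 3 were the lowest of all libraries, while Celastrol 5 was above PBS 3, so the groups overlapped. The group means were 1741 ± 1131 (SD, n = 2), 1598 ± 1306 (n = 3) and 673 ± 486 (n = 3). Celastrol minus PBS was -1.43 ± 0.74 (95% interval -3.08 to 0.21, limma adjusted p = 0.496), and celastrol minus bleomycin was -1.09 ± 0.67 (interval -2.56 to 0.38, adjusted p = 0.975). The difference from PBS was -1.05 within the 4 deepest libraries and -1.27 within the other 4. It moved to -0.72 without PBS 2 and to -2.15 without PBS 3.

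Cidec, whose product helps small droplets fuse into a large one, lies on the minus strand of chromosome 6 at 113424634 to 113435760. Its values were 1241 and 677 in the PBS libraries, 2118, 502 and 1600 in the bleomycin libraries, and 614, 682 and 2378 in the celastrol libraries. Celastrol 5 was the highest library and Bleomycin 3 the lowest, and all groups overlapped. The differences between groups lay between -0.26 and 0.38, with SEs of 0.59 to 0.66.

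**Figure D2:**
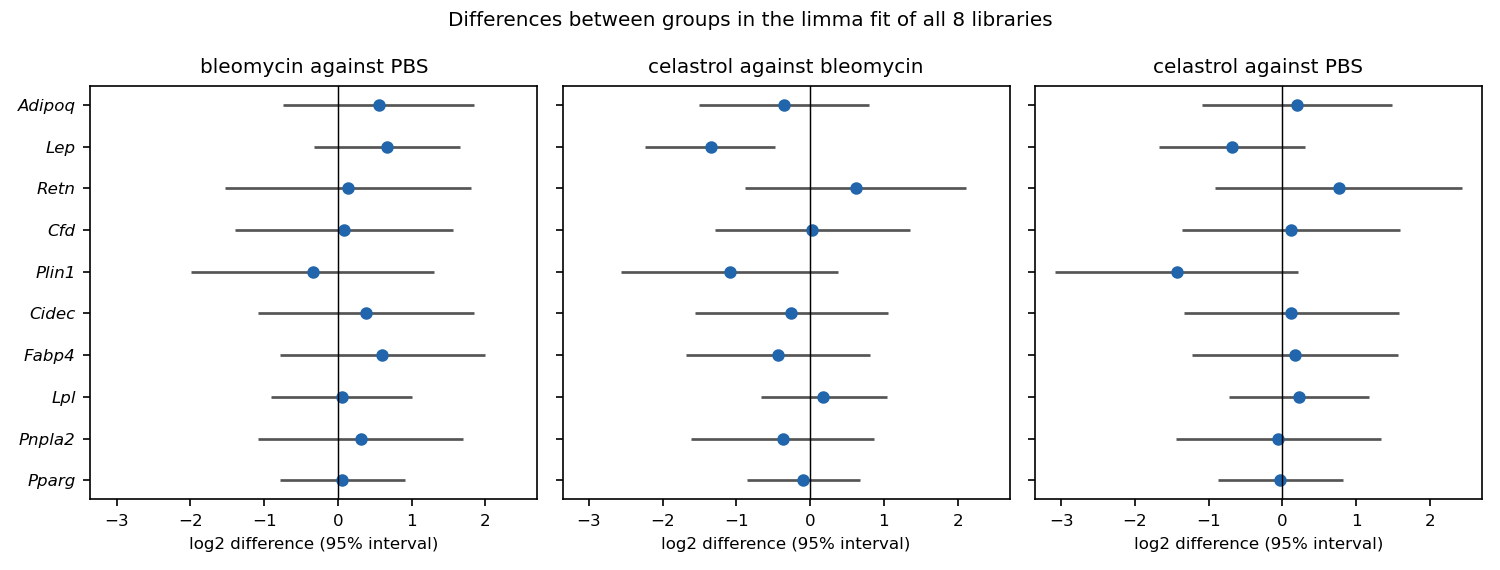
Log2 difference of each adipocyte gene (points) with its 95% interval (lines) in the limma fit of all 8 libraries, for the 3 comparisons. The interval of Lep for celastrol against bleomycin (-2.24 to -0.47) is the only one that does not reach 0, and no gene passed the adjusted threshold.

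Among the genes of fatty acid handling, Fabp4 encodes a fatty acid binding protein that is abundant in the cytoplasm of fat cells and is also made by capillary endothelium. It lies on the minus strand of chromosome 3 at 10204088 to 10208576. Its values were 6966 and 5970 in the PBS libraries, 11503, 4945 and 16520 in the bleomycin libraries, and 3009, 7244 and 17437 in the celastrol libraries. Bleomycin 4 and Celastrol 5 were well above both PBS libraries, and each of their groups also held a library below both. The difference for bleomycin against PBS was 0.60 ± 0.63, with an interval of -0.79 to 2.00.

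Lpl encodes lipoprotein lipase, which frees fatty acids from circulating triglyceride and is also made by muscle, and lies on chromosome 8 at 68880491 to 68907448. Its values were 12375 and 11665 in the PBS libraries, 16789, 7561 and 15031 in the bleomycin libraries, and 7501, 16443 and 22602 in the celastrol libraries. Celastrol 2 and Bleomycin 3 lay below both PBS libraries and the remaining treated libraries lay above them. The differences were between 0.05 and 0.23 with SEs of 0.39 to 0.43, among the narrowest intervals of the members (-0.91 to 1.00 for bleomycin against PBS).

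Pnpla2 encodes adipose triglyceride lipase, the enzyme of the first step of lipolysis, and lies on chromosome 7 at 141455198 to 141460743. Its values were 1315 and 597 in the PBS libraries, 1943, 528 and 1287 in the bleomycin libraries, and 547, 575 and 1936 in the celastrol libraries. The libraries fell into 4 high and 4 low ones, with libraries of every group in both. Its differences lay between -0.37 and 0.31, with SEs of 0.56 to 0.63.

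Pparg, the transcription factor gene, lies on chromosome 6 at 115360951 to 115490399. Its values were 954 and 657 in the PBS libraries, 813, 731 and 952 in the bleomycin libraries, and 553, 585 and 1442 in the celastrol libraries. Its highest value was 2.61 times the lowest, the narrowest range of the members. The group means were 805 ± 210 (SD, n = 2), 832 ± 112 (n = 3) and 860 ± 504 (n = 3). The differences were 0.06 ± 0.38 for bleomycin against PBS (interval -0.79 to 0.91), -0.09 ± 0.34 for celastrol against bleomycin (interval -0.85 to 0.67) and -0.03 ± 0.38 for celastrol against PBS (interval -0.88 to 0.82). None of the 10 members shared exon bases with another gene of the annotation.

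Most members were high or low together in a library, whatever its group. Celastrol 5 was the highest library for 7 members, Bleomycin 2 for 2 and Bleomycin 4 for Lep. Celastrol 2 was the lowest for 5 members, Bleomycin 3 for 4 and Celastrol 3 for Lep. The median over members of the log2 deviation from each gene's mean was 0.07 in PBS 2 and -0.37 in PBS 3. It was 0.56 in Bleomycin 2, -0.80 in Bleomycin 3 and 0.61 in Bleomycin 4, and -0.80, -0.53 and 1.09 in Celastrol 2, 3 and 5. Summed over members, the values made up 0.139% ± 0.0257 (SD, n = 2) of a PBS library, 0.183% ± 0.0869 (n = 3) of a bleomycin library and 0.165% ± 0.108 (n = 3) of a celastrol library. The libraries with the lowest and the highest share, 0.0749% and 0.285%, were both celastrol libraries.

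For most members the high libraries were the deeply sequenced ones. For 6 of 10 members (Adipoq, Cfd, Plin1, Cidec, Pnpla2 and Pparg) each of the 4 deepest libraries was above each of the other 4. Over all genes tested, 4.91% separated these sets of libraries in either direction and 2.63% did so with the deepest libraries higher. The values are already scaled for library size, and the part of depth in this pattern was not tested. Within the 4 deepest libraries the member median was 0.52 for bleomycin against PBS, 0.44 for celastrol against bleomycin and 0.90 for celastrol against PBS. Within the other 4 the medians were -0.35, 0.00 and -0.22. The sign of the median therefore differed between the depth sets for both comparisons with PBS, and each of those sets holds 1 PBS library, which gives no test. With estimated depth as a covariate, an analysis chosen after seeing the data, 0 members passed in limma and the medians were 0.23, 0.26 and 0.67. In that analysis 5 of 10 members had an unadjusted p under 0.05 for celastrol against PBS, as did 2619 of 23185 genes. Without the 3 shallowest libraries, also chosen after seeing the data, the celastrol median against PBS was 1.25. The libraries left out were Bleomycin 3, Celastrol 2 and Celastrol 3. Their median log2 deviations over members (-0.80, -0.80 and -0.53) were the lowest of all libraries. Leaving them out thus raises the treated groups by the choice itself, and leaves Celastrol 5 as the lone celastrol library.

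Because the members varied together, each was also taken as a ratio to Adipoq of the same library, which describes a gene relative to another fat cell transcript. The Lep ratio was 0.217 and 0.347 in the PBS libraries, 0.217, 0.338 and 0.362 in the bleomycin libraries, and 0.236, 0.157 and 0.0896 in the celastrol libraries. On this scale the celastrol and bleomycin libraries overlapped for Lep, by Celastrol 2 and Bleomycin 2. The Plin1 ratio was 1.15 and 0.591 with PBS, 0.889, 0.302 and 0.322 with bleomycin, and 0.260, 0.323 and 0.222 with celastrol. The celastrol libraries thus lay below both PBS libraries in Plin1 relative to Adipoq, as 9.77% of genes did, and 11.5% separated these groups in either direction. The Retn ratio was 0.546 and 0.683 with PBS, 0.544, 0.312 and 0.566 with bleomycin, and 0.614, 1.21 and 0.978 with celastrol. All celastrol libraries lay above all bleomycin libraries in Retn relative to Adipoq, as 0.582% of genes did, and 2.98% of genes separated these groups in either direction. For bleomycin against PBS, the Cfd ratio was lower in bleomycin, at 1.73 to 3.16 against 3.22 and 3.34 in PBS. The Lpl ratio was also lower, at 3.68 to 4.99 against 5.58 and 7.33, and 17.6% of genes were lower on this scale, with 19.9% separated in either direction. The shares divide every gene by Adipoq, so for genes that do not vary with Adipoq they follow the spread of Adipoq itself. They are therefore not a like rate for the members, most of which vary with it. The ratios carry no test. With 3 libraries against 3 an exact two-sided permutation test cannot go below 0.1, and with 3 against 2 it cannot go below 0.2.

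**Figure D3:**
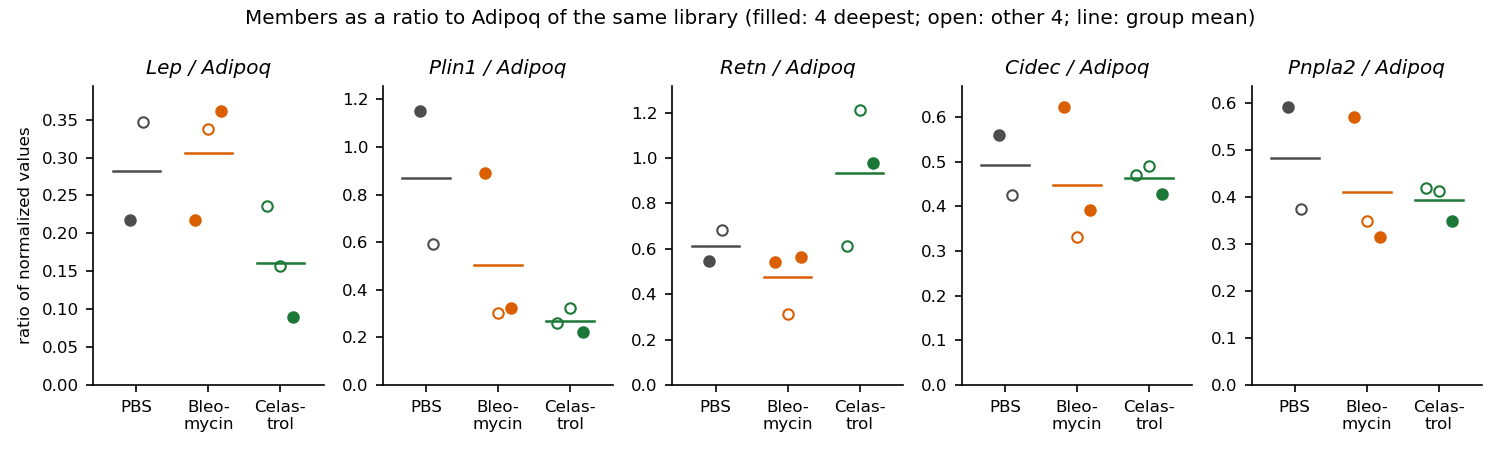
Ratio of 5 adipocyte genes to Adipoq of the same library (linear axis from 0), by group, with filled points for the 4 deepest libraries, open points for the other 4 and a line at the group mean. The celastrol libraries lie above the bleomycin libraries for Retn (0.614 to 1.21 against 0.312 to 0.566) and below the PBS libraries for Plin1 (0.222 to 0.323 against 0.591 and 1.15).

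Levels of different members were compared per kilobase of exon. Over the 8 libraries, Fabp4 was highest at 10267 ± 6002 (SD, n = 8) per kb, followed by Cfd at 8247 ± 5016, Lpl at 3340 ± 1233 and Adipoq at 2037 ± 1207. Retn followed at 1175 ± 988 and Cidec at 699 ± 418. The lowest levels were those of Pnpla2 at 416 ± 235, Pparg at 352 ± 121, Plin1 at 332 ± 258 and Lep at 184 ± 119 per kb. Within libraries, Cfd was above Lpl, Lpl above Adipoq, Adipoq above Retn and Cidec above Pnpla2 in 8 of 8. Fabp4 was above Cfd in 6 of 8 and Pnpla2 above Pparg in 4 of 8, so the order of these neighbours did not hold in every library. Retn was above Cidec in 7, Pparg above Plin1 in 6 and Plin1 above Lep in 5 of 8. By group means the place of Plin1 differed, at 449 per kb in PBS, 413 in bleomycin and 174 in celastrol libraries. Those of Pparg were 339, 350 and 362. Only in PBS 2 and Bleomycin 2 was Plin1 above Pparg per kb, and the Plin1 values of all groups overlapped.

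The other genes of adipocyte pathways were followed in 10 lists with 91 genes, of which 87 were in the table and 86 were tested. For bleomycin against PBS, 3 of 86 fell and 0 rose in limma, where 0.224% of all genes fell and 0.453% rose. Cidea, a droplet protein of brown fat and of sebaceous glands, fell by 1.70 ± 0.28 (adjusted p = 0.0274), from 812 and 943 in PBS to between 249 and 286. Pank1, an enzyme of coenzyme A synthesis placed in the thermogenic list, fell by 1.09 ± 0.20 (adjusted p = 0.0351). Cd34, a surface protein of adipocyte precursors that endothelial and hair follicle stem cells also carry, fell by 1.67 ± 0.29 (adjusted p = 0.0341).

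For celastrol against PBS, 4 of 86 fell and 1 rose in the same fit, where 0.543% of all genes fell and 0.824% rose. Mgll, which encodes monoglyceride lipase, the last enzyme of lipolysis, fell by 2.04 ± 0.33 (adjusted p = 0.0167), from 9315 and 4408 in PBS to between 1441 and 1694. With bleomycin Mgll stood at 3119, 1680 and 1850. Its bleomycin difference from PBS of -1.59 ± 0.33 was near the threshold in limma but did not pass (adjusted p = 0.0646). Celastrol against bleomycin was -0.45 ± 0.29 for Mgll. The 3 genes called with bleomycin were also lower in celastrol against PBS, Cidea by a fall of 1.73 ± 0.28 (adjusted p = 0.0172). Pank1 fell by 1.06 ± 0.20 and Cd34 fell by 1.47 ± 0.29, with adjusted p-values of 0.0297 and 0.0413. Cd24a, a surface protein of early precursors that keratinocytes and blood cells also make, rose by 1.55 ± 0.29 (adjusted p = 0.0330). With bleomycin Cd24a was also higher than in PBS, by 1.23 ± 0.29, and did not pass in limma (adjusted p = 0.111). Celastrol against bleomycin was 0.32 ± 0.26 for Cd24a. How its reads shared with related copies were counted is not given in the sources used here. For celastrol against bleomycin 0 of 86 passed in limma, as did 0% of all genes. An unadjusted p under 0.05 was found for 5 of 86, against 3.87% of all genes.

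These 8 calls all kept their direction in 17 alternative analyses, and each was lost in at least 5. Without PBS 2 all 8 were lost (adjusted p 0.0995 to 0.214), and without PBS 3 all but Mgll were lost (0.188 to 0.277), in fits that assume the lone PBS library to vary like the other groups. Without Celastrol 5, all 5 calls against PBS in celastrol were lost (0.0739 to 0.123). Without Celastrol 2 or Bleomycin 4, 6 calls each were lost (0.0524 to 0.0895 and 0.0596 to 0.197). Without Bleomycin 3, all 3 bleomycin calls were lost (0.0794 to 0.12), and without Celastrol 3, Cd34 and Cd24a in celastrol were lost (0.0542 to 0.0731). Mgll moved to -1.5 without PBS 2.

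**Figure D4:**
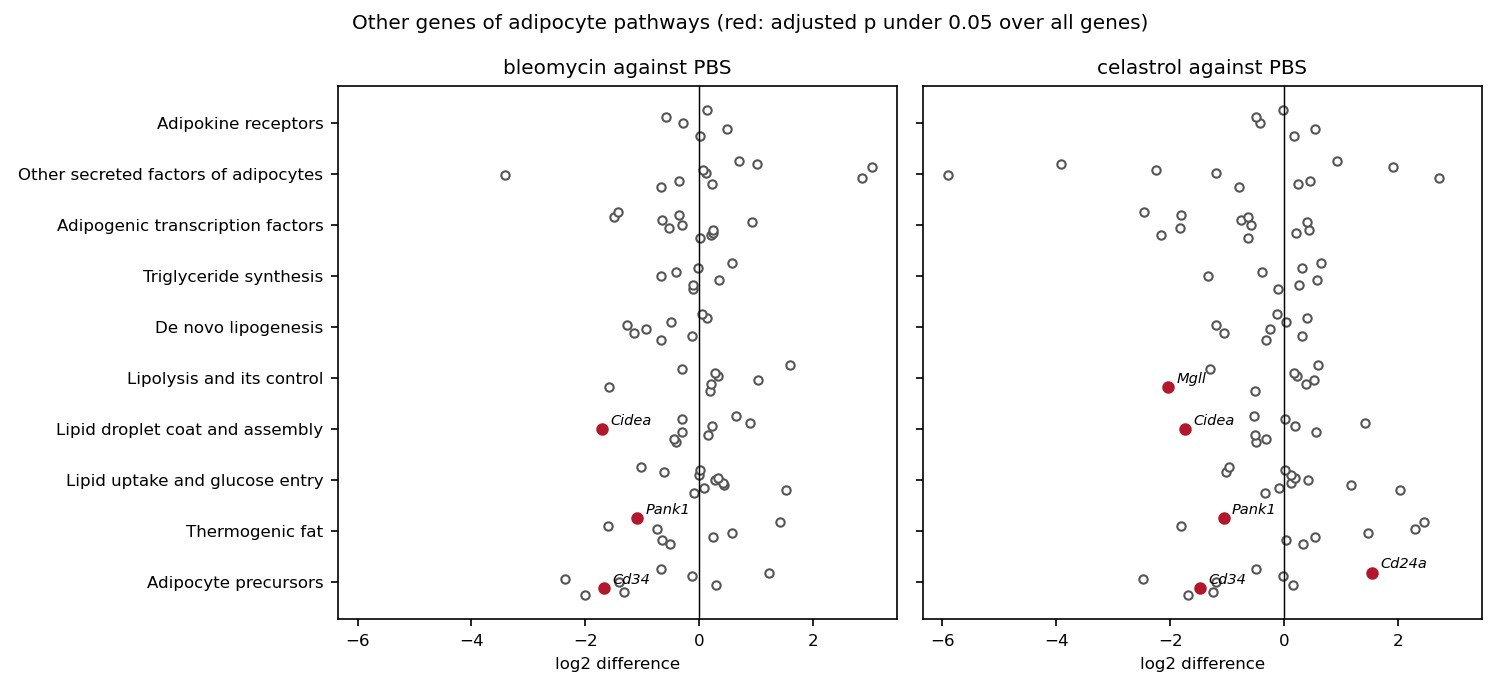
Log2 difference of each tested gene of 10 adipocyte pathway lists (points, 1 row of points per list) for bleomycin and for celastrol against PBS, with filled named points for genes past an adjusted p of 0.05. The named points are Cidea, Pank1 and Cd34 in both panels, with Mgll and Cd24a in the celastrol panel. In the bleomycin panel Mgll (-1.59) and Cd24a (1.23) lay in the same direction and did not pass.

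By list, the calls fell in lipolysis, droplet assembly, thermogenic and precursor genes. In the precursor list 1 of 9 fell for bleomycin and, for celastrol, 1 rose and 1 fell, with medians of -1.32 and -1.19 against PBS. The list of lipolysis and its control (8 genes) had 1 call, Mgll for celastrol, which was also lower with bleomycin (-1.59) without passing. Its medians were 0.24 for bleomycin and 0.20 for celastrol against PBS. The droplet list (9 tested) had medians of -0.30 and -0.32, with Cidea as its call in both comparisons. The thermogenic list (8 tested) had medians of -0.58 and 0.45, with Pank1 as its call in both. Its highest values for celastrol against PBS were those of Cpt1b (2.45), Cox8b (2.30) and Cox7a1 (1.48), mitochondrial genes that skeletal muscle also expresses, named after their values were seen, and none of them passed. Ucp1, the uncoupling protein of brown fat, did not pass the filter, and stood at 55.5 in Celastrol 5 and at most at 4.17 elsewhere.

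The remaining 6 lists, with 52 genes tested, held 0 calls in limma in all comparisons. At an unadjusted p under 0.05 they held 10 genes for bleomycin against PBS, 2 for celastrol against bleomycin and 15 for celastrol against PBS. Over all 23185 genes tested, 1582, 898 and 2791 met this bound. With depth as a covariate, 1 of the 52 passed for bleomycin and 2 for celastrol against PBS. The counts over all 86 list genes were then 5 and 7, and those over all 23185 genes were 162 and 302. Each gene named below from these lists is first given in the comparison of its smallest p. For adipokine receptors (5 genes), medians were 0.02, 0.06 and -0.01 for bleomycin against PBS, celastrol against bleomycin and celastrol against PBS. Adipor2, an adiponectin receptor, differed by 0.54 ± 0.24 for celastrol against PBS (adjusted p = 0.405), and Lepr, the leptin receptor, by -0.58 ± 0.29 for bleomycin against PBS (adjusted p = 0.863). Other secreted factors (10 genes) had medians of 0.17, -0.62 and -0.28. Among them Nnat, which encodes the membrane protein neuronatin, was 309 and 135 in PBS, 331, 234 and 910 with bleomycin and 0, 42.2 and 57.6 with celastrol. Its difference of -4.93 ± 1.3 for celastrol against bleomycin (adjusted p = 0.975) depends on the pseudocount, since Celastrol 2 is listed at 0.

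Adipogenic transcription factors (11 genes) had medians of -0.30, -0.53 and -0.64. Ebf1, a factor of early adipogenesis and of B cells, differed by -0.76 ± 0.21 for celastrol against PBS (adjusted p = 0.14), and Ebf2, of brown fat precursors, by -1.50 ± 0.58 for bleomycin against PBS (adjusted p = 0.568). Triglyceride synthesis (7 genes) had medians of -0.11, 0.08 and 0.27. Its leading genes were Dgat1, of the last step of synthesis, at -1.33 ± 0.45 (adjusted p = 0.248), and Acsl1, which activates fatty acids, at 0.65 ± 0.34 (adjusted p = 0.503), both for celastrol against PBS.

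De novo lipogenesis (8 genes) had medians of -0.59, 0.31 and -0.18. Elovl6, a fatty acid elongase, differed by -1.27 ± 0.26 for bleomycin against PBS (adjusted p = 0.064), and Acly, which makes cytosolic acetyl-CoA, by -0.68 ± 0.31 (adjusted p = 0.713). For celastrol against PBS, Elovl6 differed by -1.2 ± 0.26 (adjusted p = 0.0565) and Acly by -0.31 ± 0.31 (adjusted p = 0.752). Lipid uptake and glucose entry (11 genes) had medians of 0.09, -0.01 and 0.12. Irs1, an adaptor of the insulin receptor, differed by -1.02 ± 0.25 for bleomycin against PBS (adjusted p = 0.128) and by -0.97 ± 0.25 for celastrol against PBS (adjusted p = 0.109). Gpihbp1, which carries lipoprotein lipase across capillary endothelium, differed by 2.03 ± 0.69 for celastrol against PBS (adjusted p = 0.249).

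The label of skin was checked with markers of the cell types that the homogenate could hold. All 12 white adipocyte markers, 6 of which are members, were in the table, with a summed share of 0.0651% to 0.114% in PBS, 0.0434% to 0.159% in bleomycin and 0.0510% to 0.156% in celastrol libraries. Of these Adig, which encodes the small protein adipogenin, was listed at 0 in Celastrol 2, and 0 of 12 passed in limma in any comparison. Keratinocyte markers made up 0.852% to 1.95% of the libraries, with 0 of 8 called. The mammary markers tested, 3 of 6, were at most 0.000804% of a library.

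Skeletal muscle, sebocyte and fibroblast markers differed between groups beside the adipocyte genes. The 12 skeletal muscle markers summed to 0.372% to 0.501% in PBS, 0.472% to 0.853% in bleomycin and 0.833% to 1.09% in celastrol libraries, and 5 of 12 rose for celastrol against PBS (Tnni2, Myh1, Myh4, Tnnt3 and Actn3, list median 1.38). Myh1 was the 1 of 12 that rose for bleomycin against PBS (list median 0.38). Muscle also makes Lpl and the thermogenic list's Cpt1b, Cox8b and Cox7a1, and its part in those values was not tested. The 11 sebocyte markers summed to 0.140% to 0.155% in PBS, 0.0646% to 0.0824% in bleomycin and 0.0617% to 0.0806% in celastrol libraries, with Cidea and Scd3 lower against PBS in both treatments and Far2 with celastrol (list medians -1.70 and -1.73). The marker genes named here were chosen after their values were seen. Cidea is in both the sebocyte and the droplet list, and Elovl3 in the sebocyte and the thermogenic list. The part of sebaceous glands in the lower Cidea was not tested. The 10 dermal fibroblast markers summed to 1.5% to 3.32% in PBS, 0.142% to 0.476% in bleomycin and 0.119% to 0.313% in celastrol libraries, with 6 and 7 of 10 lower against PBS (medians -2.19 and -2.08). Pdgfra (-2.0 for bleomycin and -1.69 for celastrol against PBS) and Pi16 (-2.35 and -2.47) are in both the fibroblast and the precursor list and did not pass, so the medians of these lists share genes. The part of fibroblasts in the precursor medians and in the lower Cd34 was not tested. The calls in these 3 marker lists all went to 0 for bleomycin against PBS without PBS 2, PBS 3, Bleomycin 3 or Bleomycin 4, and for celastrol against PBS all went to 0 without PBS 3. For celastrol against PBS, only 1 muscle call was left without PBS 2, and only 1 sebocyte call without Celastrol 5. The muscle median for bleomycin against PBS lay between 0.09 and 0.71 with 1 library left out. With any 1 library left out, the list medians for celastrol against PBS stayed between 1.14 and 1.62 for muscle, -2.07 and -1.59 for sebocytes, and -2.41 and -1.84 for fibroblasts. Macrophage markers (0 of 10 called) had medians of 0.70 and 0.54 against PBS, and capillary endothelium markers (0 of 8 called) of 0.33 and 0.06.

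**Figure D5:**
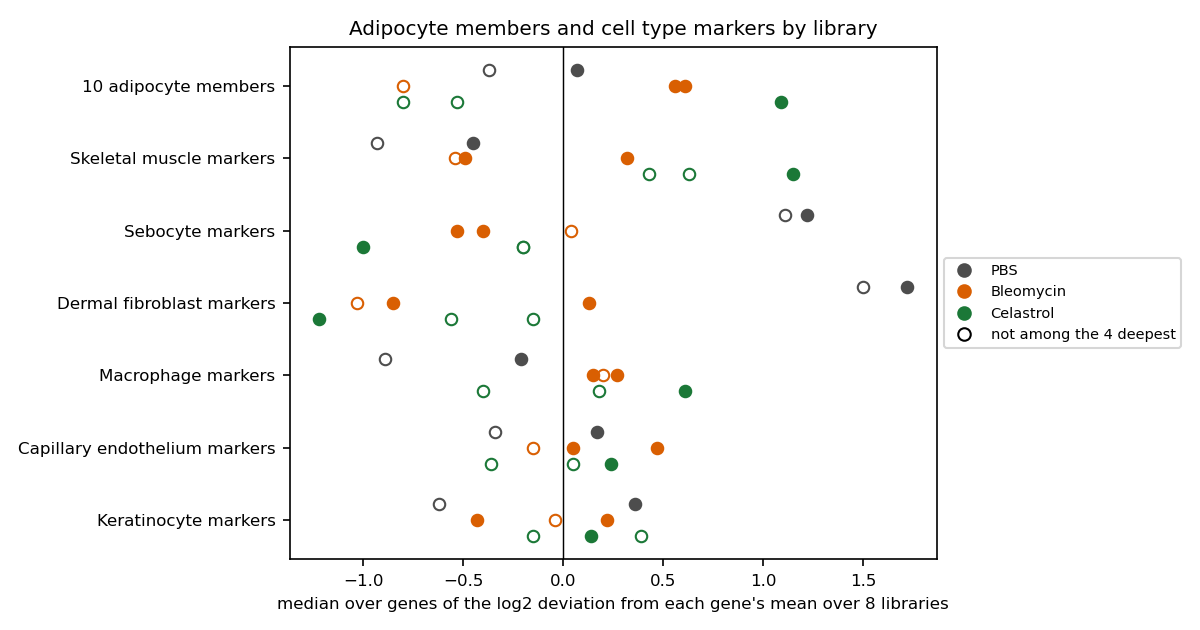
Median over genes of the log2 deviation from each gene's mean over 8 libraries, for the 10 adipocyte genes and 6 marker lists, with a point per library coloured by group and open where the library is not among the 4 deepest. The sebocyte and fibroblast medians of the PBS libraries (1.11 and 1.22, and 1.5 and 1.72) lie above those of all treated libraries, while the adipocyte medians of every group lie on both sides of 0.

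The genes whose pattern over the 8 libraries was nearest to the mean pattern of the members were found by the root mean square of the log2 differences, among 13167 genes. They were H2-M2 at 0.16, Galt at 0.18, Ifi27l2a at 0.21, Ptafr at 0.21 and Hcar1 at 0.23, followed by Cyfip2, Ftl1, Slc22a3, C1qtnf9 and Gsr at 0.25 to 0.27. A gene with no variation would lie at 0.68. Hcar1, the lactate receptor of fat cells, was 112 and 65.1 in PBS, 169, 40.5 and 109 in bleomycin and 41.0, 48.9 and 131 in celastrol libraries. Among the members themselves Adipoq (0.20), Cidec (0.21), Cfd (0.22) and Pnpla2 (0.23) lay nearest to the mean pattern. Lep (0.65) and Plin1 (0.68) lay about as far from it as a gene with no variation. Each member is itself part of the mean pattern, which pulls its distance down. The distances of members are therefore not on a like footing with those of other genes. The distance counts the size of swings as well as their pattern. Plin1 swung from -1.52 to 1.63 about its mean and, like most members, was highest in the deepest libraries. The genes nearest to Adipoq were Slc22a3 at 0.14, Ifi27l2a at 0.24, Skint2 and Ephx2 at 0.29 and H2-M2 at 0.31. Slc22a3, an organic cation transporter, was 146 and 124 in PBS, 318, 122 and 292 in bleomycin and 91.9, 99.5 and 418 in celastrol libraries, high in the same 3 treated libraries as Adipoq. All of these patterns share the same libraries and depths, and reads of Ftl1 may be shared with its processed pseudogenes.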

How the data were processed

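RNA from skin homogenate was extracted with TRIzol and made into libraries with a total RNA kit, per the labels' protocols. The deposited values are a linear normalized signal, which the authors scaled by DESeq2 in its poscounts form, per the file headers. The submitters' processing notes name the mm10 build, DESeq2, STAR 2.7.3a and Partek 10.0.22. Aligner settings, the gene annotation and the use of strand are not given in the sources used here. Among the nonzero values of a library, without the smallest and the largest, 58.6% to 67.0% came within 0.03 of a whole read. Counts were therefore not recovered and no count model was used. Library sums lay between 22900000 and 26400000.

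Differences were tested with limma 3.58.1 (R 4.3.3, lmFit, eBayes with trend) on log2 of the value plus a pseudocount of 1, two-sided, with all 8 libraries in 1 fit and no covariate. A filter kept genes that reached 10 in 2 or more libraries and removed 1427. A fold on this scale understates changes of low genes. The procedure was tested on simulated data. Alternatives were a pseudocount of 10, no filter, only the groups compared, library weights, a replicate block, other scalings, each library left out and, chosen after seeing the data, depth as a covariate and omission of the 3 shallowest libraries.

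Named genes were all members, every list gene past the threshold or, in lists without one, the 2 with the smallest p, and for likeness the 10 nearest genes to the members and 5 to Adipoq, with mean values of 50 or more and no predicted, mitochondrial or ribosomal protein gene. A list gene that this rule names is not reported here. The members and lists were chosen with earlier results of these data known. Exon lengths and positions are from GENCODE M21.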

Additional observations from a re-analysis of the deposited data

How the results depend on the processing

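In 17 alternative analyses 0 of 10 members passed in any comparison, the smallest adjusted p being 0.0751. Of 510 member values, 434 kept their sign and 76 took the other. With groups of 2 or 3 libraries, the intervals of most members hold changes of about 1 log2 unit.

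Whether the replicate numbers pair the libraries is not settled here. In their deviations from the group means, same-numbered libraries correlated by 0.00 to 0.20 and other pairs by -0.20 to 0.12. With 2 or 3 libraries in a group these deviations depend on each other, so the correlations cannot decide on pairing. With the replicate number as a block, 17 genes were called for bleomycin against PBS and 41 for celastrol against PBS, and member medians were 0.07, -0.68 and -0.49. The block turned Retn to -0.29, Cfd to -0.21, Lpl to -0.09 and Pparg to -0.04 for bleomycin against PBS, Cfd to -0.33 and Lpl to -0.02 for celastrol against bleomycin, and Adipoq to -0.48, Cfd to -0.55, Cidec to -0.50, Fabp4 to -0.47 and Lpl to -0.11 for celastrol against PBS. All 8 list calls were lost under it (adjusted p 0.0981 to 0.172). No other library shares the number of Bleomycin 4 or of Celastrol 5, so the block fits these libraries exactly. The differences under the block therefore rest on the libraries numbered 2 and 3 alone.

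Library weights called 711 genes for bleomycin against PBS, turned Cfd to -0.05 for celastrol against bleomycin and Pnpla2 to 0.24 and Pparg to 0.20 for celastrol against PBS. Cfd turned to -0.09 with equal totals and -0.10 with quantile normalization for celastrol against bleomycin, and to -0.01 with the latter for celastrol against PBS.

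Depth as a covariate turned Adipoq to 0.25, Cidec to 0.41, Fabp4 to 0.14, Pnpla2 to 0.27 and Pparg to 0.24 for celastrol against bleomycin, and Pnpla2 to 0.58 and Pparg to 0.31 for celastrol against PBS. Without the 3 shallowest libraries limma called 0 genes for bleomycin (1636 at an unadjusted p under 0.05) and 4 for celastrol against PBS, all 8 list calls were lost (adjusted p 0.117 to 0.227), and the member median for celastrol against PBS was 1.25. Plin1 turned to 0.37 for bleomycin against PBS, Adipoq to 0.58, Cidec to 0.37, Fabp4 to 0.34, Pnpla2 to 0.29 and Pparg to 0.71 for celastrol against bleomycin, and Pnpla2 to 1.13 and Pparg to 0.86 for celastrol against PBS. Both analyses were chosen after seeing the data, and the second leaves out the 3 libraries in which the members were lowest.

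Leaving out 1 library in turn gave 16 to 229 genes called for bleomycin against PBS, 0 to 1 for celastrol against bleomycin and 38 to 418 for celastrol against PBS. Against 157 and 317 genes with all libraries, the bleomycin count dropped to 70 without PBS 2, 18 without PBS 3, 33 without Bleomycin 3, 16 without Bleomycin 4 and 103 without Celastrol 5, and the celastrol count to 104 without PBS 2, 38 without PBS 3, 158 without Bleomycin 4, 143 without Celastrol 2 and 39 without Celastrol 5. The members that changed sign for celastrol against bleomycin ranged as follows: Adipoq -1.04 to 0.01, Cfd -0.63 to 0.47, Cidec -0.88 to 0.16, Fabp4 -1.07 to 0.20, Lpl -0.17 to 0.64, Pnpla2 -0.97 to 0.04, Pparg -0.54 to 0.15 and Retn -0.12 to 1.26. The members that changed sign for celastrol against PBS ranged as follows: Adipoq -0.48 to 0.56, Cfd -0.55 to 0.55, Cidec -0.50 to 0.56, Fabp4 -0.47 to 0.80, Lpl -0.11 to 0.68, Pnpla2 -0.66 to 0.51 and Pparg -0.48 to 0.24. The members that changed sign for bleomycin against PBS ranged as follows: Cfd -0.28 to 0.74, Cidec -0.06 to 1.01, Lpl -0.17 to 0.40, Plin1 -1.06 to 0.38, Pnpla2 -0.26 to 0.88, Pparg -0.21 to 0.33 and Retn -0.29 to 0.85. The member medians ranged from -0.07 to 0.84, -0.93 to 0.12 and -0.49 to 0.51.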
